A study of Mus musculus with 32 samples.

Results

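Oxidative phosphorylation is carried out by 5 protein complexes of the inner mitochondrial membrane. Complex I (NADH dehydrogenase), complex II (succinate dehydrogenase) and complex III (cytochrome bc1) pass electrons from NADH and succinate to cytochrome c, complex IV (cytochrome c oxidase) hands them to oxygen, and complex V (ATP synthase) uses the resulting proton gradient to make ATP. Most subunits are encoded in the nucleus and a few core ones in mitochondrial DNA, and several complex IV subunits have a form used by liver and most tissues beside forms typical of heart, skeletal muscle, brown fat, lung or testis. In liver the system supplies ATP for glucose, lipid and urea metabolism and reoxidises the NADH that fatty acid oxidation produces.

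The genes described here are the nuclear subunits, chosen by name: array probes annotated as Nduf a, b, c, s or v genes, Sdha to Sdhd, Uqcr genes, Cox4 to Cox8 genes and Atp5 genes. The names matched 131 of 56605 non-control probes and 85 genes, of which 84 were among the 23644 genes tested. Of the tested genes, 79 are subunits: 36 of complex I, 4 of complex II, 8 of complex III, 16 of complex IV (with Ndufa4 counted there) and 15 of complex V. A further 5 match by name without being subunits of a complex and are described apart: Ndufa4l2, Cox7a2l, Atp5s, Atp5sl and the pseudogene Atp5c1-ps. Cox8c, a testis form, was above background on none of the 32 arrays and was not tested. The name rule itself uses no measured value, but it was chosen with earlier results of these data known.

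Liver RNA came from male F1 C57BL/6J mice killed at 21 weeks of age, 1 Agilent one-colour array per mouse and 8 mice per group. The groups were Western diet with E171, Western diet control, normal diet with E171 and normal diet control. E171 is food-grade titanium dioxide, given in the pellets to reach 10 mg/kg body weight daily, to the mothers from before mating and to their offspring throughout, so that exposed mice met it before and after birth and control mice at no time. The Western diet, called high-fat in the treatment protocol, began at 5 weeks of age and lasted 16 weeks. Litters are not given in the labels, so every p-value takes the 8 mice of a group as independent. In whole liver, fewer cells of a type and less RNA per cell cannot be told apart.

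A level is the log2 signal of a gene's brightest probe relative to the 75th percentile of its array (0 is that percentile), and a difference is between the means of 8 mice. Levels of different probes are not set against each other. Adjusted p-values come from limma's two-sided moderated test, Benjamini-Hochberg adjusted over all 23644 genes, with a threshold of 0.05. Correlations between arrays of a group ran from 0.981 to 0.996, and no spot was saturated. All 73 subunits that are not tissue-restricted forms were well above background on every array, and 69 of the 79 lay in the brightest 10% of tested genes. The livers expressed the hepatocyte markers: 9 of 10 were matched and all 9 were measured. Their summed level ran from 4958 to 6791 times the 75th percentile in Western diet E171 mice, from 4745 to 7262 in Western diet controls, from 6820 to 9041 in normal diet E171 mice and from 6788 to 8554 in normal diet controls. Of the 9, 7 were lower on the Western diet in E171 mice and 8 in controls, and the summed levels of the diets did not overlap in E171 mice but did in controls. Of 8 macrophage markers, 7 were higher on the Western diet with either treatment, with summed levels from 125 to 246 in Western diet E171 mice, from 83.7 to 241 in Western diet controls, from 61.1 to 114 in normal diet E171 mice and from 46.0 to 136 in normal diet controls. Of 6 stellate cell and fibroblast markers, 5 were higher with either treatment, with summed levels from 111 to 182 in Western diet E171 mice, from 91.2 to 209 in Western diet controls, from 75.3 to 99.95 in normal diet E171 mice and from 67.7 to 99.5 in normal diet controls. Of 5 adipocyte markers, Adipoq was not tested for lack of signal above background, Cfd was higher and Plin1 and Lep were lower with either treatment. The summed level of the 4 tested ran from 8.56 to 68.1 in Western diet E171 mice, from 1.64 to 101 in Western diet controls, from 1.14 to 4.70 in normal diet E171 mice and from 1.14 to 12.7 in normal diet controls. The part of these marker shifts in the diet differences below was not tested.

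3 probes are shown because they read Atp5g1, called lower under every scaling compared below, and Ndufa10, called higher under every one in E171 mice. Each gene also has a probe, not printed, whose differences, given below, departed from those shown, at chr11:95930317-95930376 for Atp5g1 and at chr1:94369356-94369415 for Ndufa10. All shown are 60 bases long, as the array files give them in the mm9 build on the minus strand. Atp5g1 lies on chromosome 11 and this probe at chr11:95934924-95934983. The Atp5g1 calls rest on its brightest probe, at chr11:95934315-95934374, which is not printed either. Ndufa10 lies on chromosome 1, with its brightest probe at chr1:94348635-94348694 and a further probe whose position, chr1:94361039-94363996, is longer than the probe itself.
Atp5g1: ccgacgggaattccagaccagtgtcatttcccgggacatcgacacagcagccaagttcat
Ndufa10 brightest probe: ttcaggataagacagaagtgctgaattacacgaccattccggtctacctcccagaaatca
Ndufa10 further probe: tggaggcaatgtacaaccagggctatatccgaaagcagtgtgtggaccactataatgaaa

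On the 75th percentile scale, more subunits were lower than higher on the Western diet, both with and without E171. In E171 mice, 34 subunits were lower and 3 higher on the Western than on the normal diet, and in controls 40 were lower and 3 higher. As shares of the 79, 43.0% were lower and 3.80% higher in E171 mice, against 31.0% and 22.2% of all genes, and 50.6% were lower and 3.80% higher in controls, against 28.8% and 18.5% of all genes. In either direction, 37 were called in E171 mice (53.2% of all genes) and 43 in controls (47.3% of all genes). The mice of the diets did not overlap for 8 lower and 2 higher subunits in E171 mice (8.89% and 9.14% of all genes) and for 7 lower and 1 higher in controls (5.37% and 4.60% of all genes). The median difference of the subunits was -0.13 in E171 mice and -0.15 in controls, against -0.10 for all tested genes in both comparisons. 29 subunits were lower and 2 higher in both comparisons (22.9% and 16.6% of all genes), 68 differences were negative in both, 4 positive in both and 7 of opposite sign. These 2 comparisons use different mice. Across the 79 subunits their differences had a Pearson r of 0.94 and a Spearman rho of 0.83, given as a description, since all arrays share 4 slides and 1 scaling and subunits are not replicates.

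**Figure D1:**
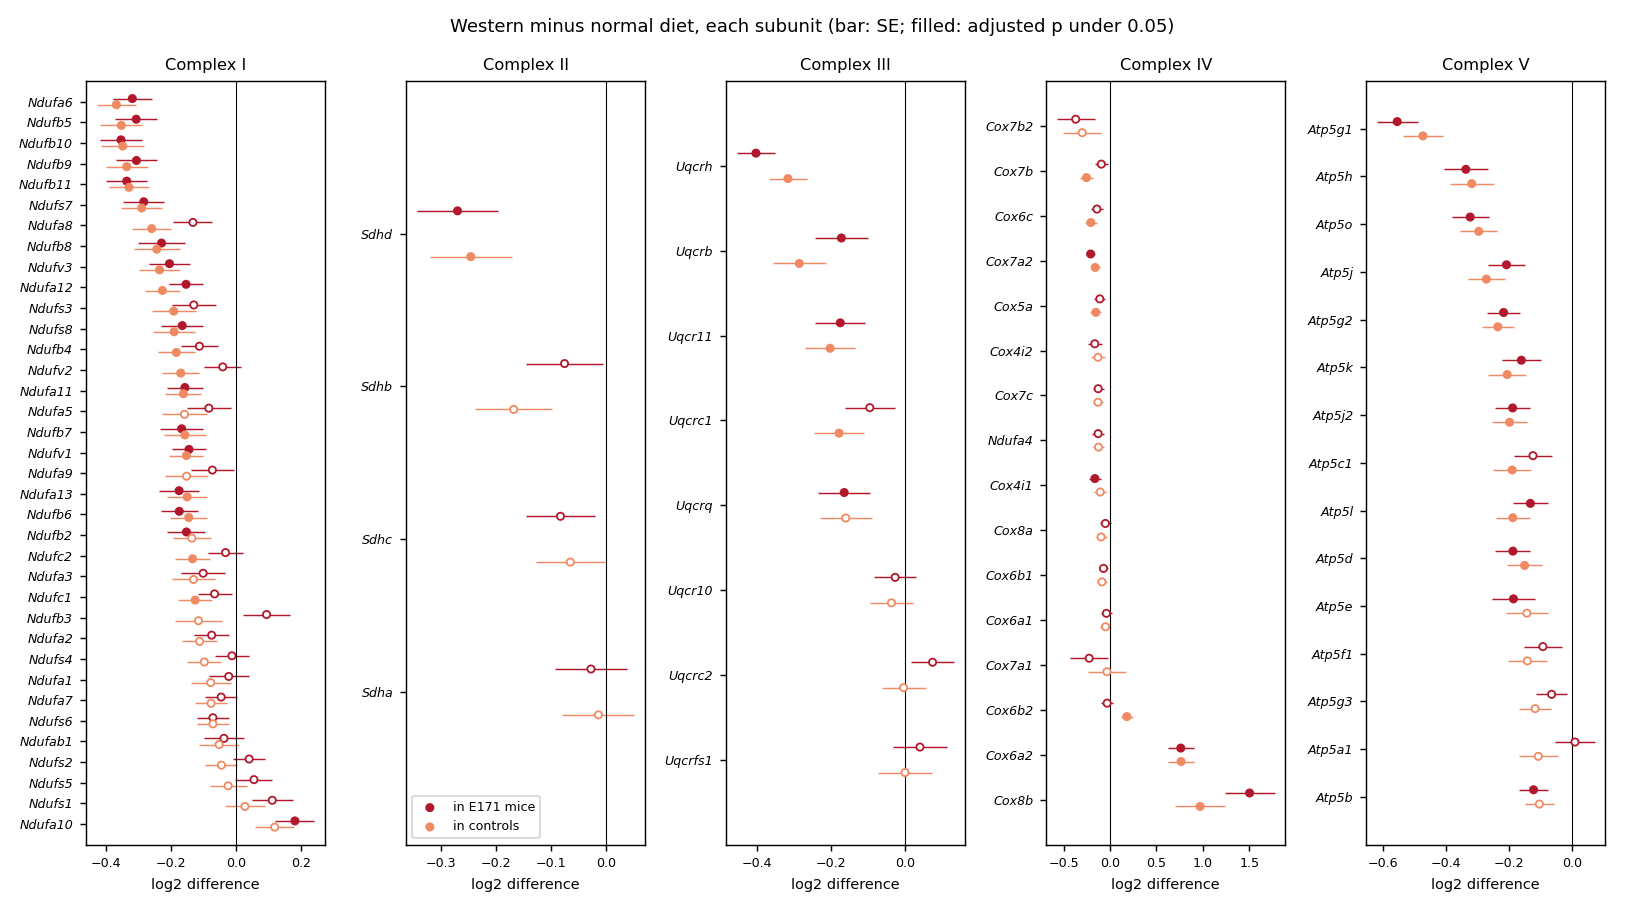
Difference between Western and normal diet (horizontal axis, log2) for each subunit, by complex, in E171 mice (dark red) and in controls (orange). Bars are standard errors and filled points passed an adjusted p of 0.05. Most points lie left of 0, the 2 series follow each other, and Cox6a2 and Cox8b stand to the right. Each panel has its own axis range.

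Whether a subunit is called, and for many subunits the sign of the difference, depends on how arrays are put on a common scale. 7 scalings were compared, among them quantile normalization, the authors' deposited value table and a scale set by the E1A spike-in probes, which are added RNA controls. With quantile normalization, the median subunit difference was 0.063 in E171 mice and 0.047 in controls, with 8 subunits lower and 25 higher in E171 mice and 7 lower and 20 higher in controls. With the spike-in scale it was -0.014 in E171 mice and 0.0079 in controls, with 2 lower and 3 higher in E171 mice and 1 lower and 3 higher in controls. The spike-in scale moved the median of all genes to 0.011 in E171 mice and 0.058 in controls. Over the 7 scalings, 21 subunits in E171 mice and 22 in controls had a negative difference in each, 10 and 5 a positive one in each, and 48 and 52 changed sign. The order of the subunits moved less: in controls the lowest Spearman rho between the 75th percentile scale and another was 0.88.

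Under all 7 scalings Atp5g1 was called lower in both comparisons and Uqcrh in E171 mice. Cox6a2 was called higher in both comparisons under all 7, and Cox8b and Ndufa10 in E171 mice. Every other direction below is given on the 75th percentile scale. For some genes the range over scalings, or the number of scalings that called them, stands beside the values.

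**Figure D2:**
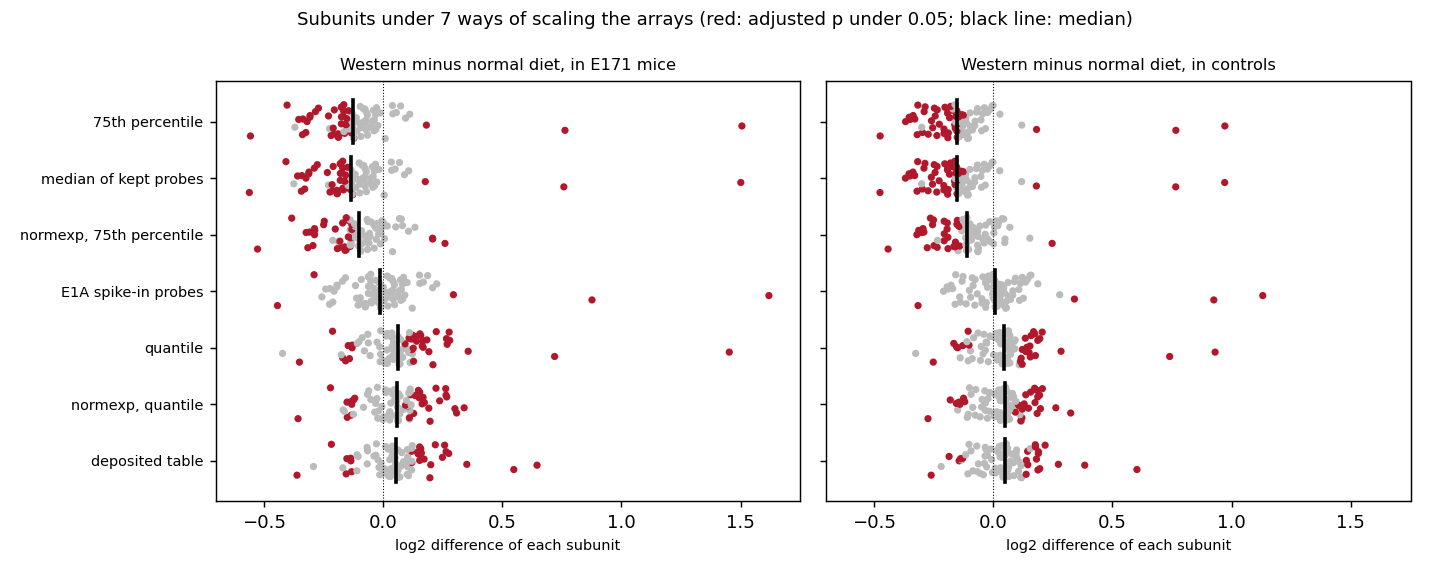
Each of the 79 subunits' diet difference (horizontal axis, log2) under 7 ways of scaling the arrays (rows), in E171 mice (left) and in controls (right). Red points passed an adjusted p of 0.05 and the black line is the median. The cloud lies left of 0 for the scalings by percentile or median and right of 0 for the quantile scalings and the deposited table, while Atp5g1 stays left of 0 and Cox6a2 right of 0 in every row.

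On the 75th percentile scale, bright genes as a class moved the same way. In the brightest 10% of tested genes the median diet difference was -0.20 in E171 mice and -0.21 in controls, with 53.7% of genes lower in E171 mice and 55.1% in controls. With quantile normalization the medians of this class were -0.037 in E171 mice and -0.023 in controls. So the subunits, most of which belong to this class, had a higher median than it under both scalings. With quantile normalization the subunit median was positive, 0.063 in E171 mice and 0.047 in controls, while that of the class was negative. The 75th percentile itself averaged 280 intensity units in Western diet E171 mice, 300 in Western diet controls, 248 in normal diet E171 mice and 255 in normal diet controls.

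**Figure D3:**
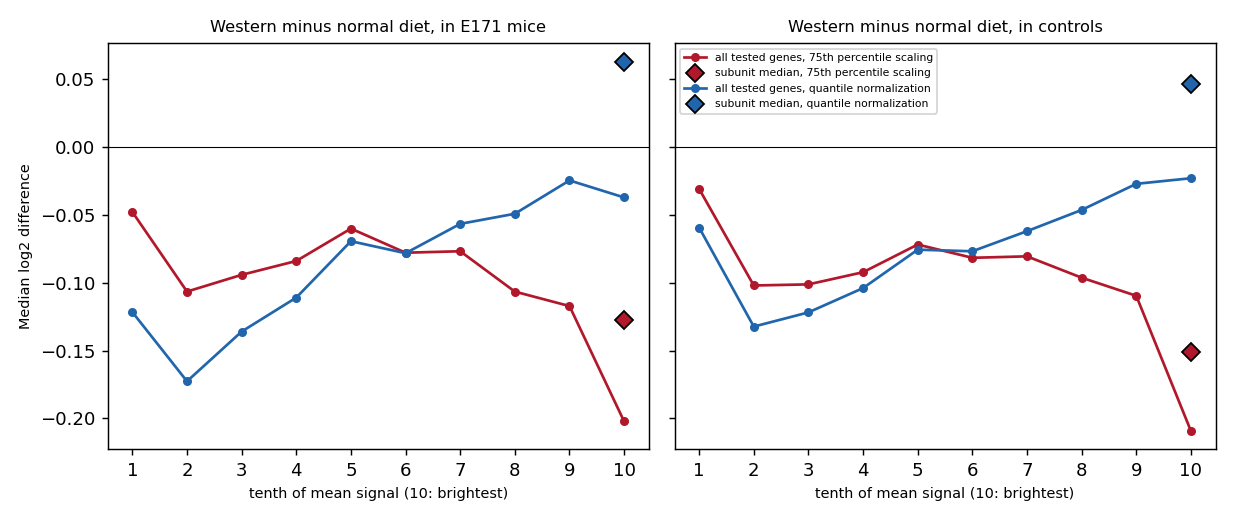
Median diet difference (vertical axis, log2) of all tested genes in 10 equal bins of mean signal (horizontal axis, 10 the brightest), in E171 mice (left) and in controls (right), on the 75th percentile scale (red) and after quantile normalization (blue). Diamonds are the subunit medians, placed at the bin that holds 69 of the 79 subunits; they lie above the line of their colour in both panels.

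Mice of a group differed in the level of the subunits as a whole. The median level over all subunits of a mouse ran from 6.34 to 6.55 in Western diet E171 mice, from 6.15 to 6.54 in Western diet controls, from 6.48 to 6.67 in normal diet E171 mice and from 6.46 to 6.67 in normal diet controls, so the diets overlapped. The lowest of all 32 was Western diet control replicate 3, which was also the lowest of all for the median of each of the 5 complexes. Single subunits could depart from that, as Cox6a2, at -1.71, was higher in it than in any other mouse. Without it, 30 subunits were lower in controls. Without Western diet E171 replicate 3, 22 were lower in E171 mice. The median SD of a subunit within a group was 0.11 in Western diet E171 mice, 0.15 in Western diet controls, 0.084 in normal diet E171 mice and 0.098 in normal diet controls, against 0.20 to 0.22 for all genes. The arrays lie on 4 slides with 2 mice of each group on each, and within slides the median subunit difference ran from -0.19 to -0.071 in E171 mice and from -0.34 to -0.016 in controls. It was negative on all 4 slides in both.

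**Figure D4:**
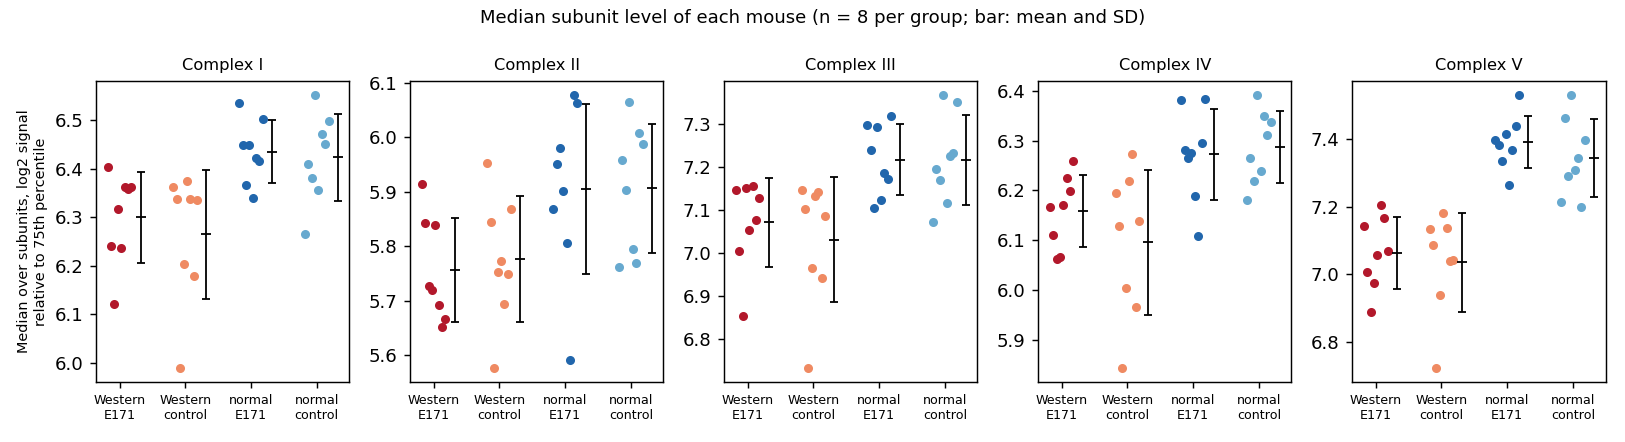
Median level over the subunits of each complex (vertical axis, log2 signal relative to the 75th percentile) in each mouse; the horizontal axis gives the 4 groups and bars the mean and SD of 8 mice. Western diet mice sit lower on average in all 5 panels, mice of the same treatment overlap between diets in complexes I to IV but not in complex V, and 1 Western diet control lies lowest.

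Complex I oxidises NADH. Of its 36 subunits, 16 were lower and 1 higher in E171 mice (31.0% and 22.2% of all genes). In controls 21 were lower and 0 higher (28.8% and 18.5% of all genes). In the brightest 10% of tested genes, 53.7% were lower in E171 mice and 55.1% in controls. The same shares apply to the parts of complex I and to complexes II to V below. Of the 7 core subunits, which carry the flavin and the iron-sulfur clusters, 3 were lower in E171 mice and 5 in controls. Their differences ran from -0.28 for Ndufs7 to 0.11 for Ndufs1 in E171 mice and from -0.29 for Ndufs7 to 0.029 for Ndufs1 in controls. In controls the other kept Ndufs1 probe gave -0.31, so its 2 probes had opposite signs. Of the 29 accessory subunits, 13 were lower and 1 higher in E171 mice and 16 lower in controls.

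Ndufa6, an accessory subunit that binds the mitochondrial acyl carrier protein, had lowest, median and highest levels of 6.99, 7.20 and 7.35 in Western diet E171 mice, and 7.37, 7.52 and 7.61 in normal diet E171 mice. In Western diet controls they were 6.87, 7.17 and 7.23, against 7.37, 7.44 and 7.68 in normal diet controls. Every Western diet mouse thus lay below every normal diet mouse of its treatment. The difference was -0.32 in E171 mice (SE 0.061, adjusted p = 6.87e-05) and -0.37 in controls (SE 0.061, adjusted p = 1.25e-05). It was called in 6 of the 7 scalings in both comparisons and ran over them from -0.32 to -0.13 in E171 mice and from -0.37 to -0.14 in controls.

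Ndufb10, an accessory subunit of the membrane arm, had levels of 6.50, 6.70 and 6.80 in Western diet E171 mice and 6.94, 7.04 and 7.19 in normal diet E171 mice. In controls they were 6.38, 6.62 and 6.838 on the Western diet and 6.843, 6.97 and 7.25 on the normal diet. Neither pair of groups overlapped. The difference was -0.35 in E171 mice (SE 0.066, adjusted p = 4.93e-05) and -0.35 in controls (SE 0.066, adjusted p = 7.51e-05), and 6 scalings called it in both. Ndufb5, another membrane arm subunit, was lower by the same test, with -0.31 in E171 mice and -0.35 in controls, called in 4 scalings in E171 mice and 6 in controls.

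Ndufa10, an accessory subunit of the matrix side related to nucleoside kinases, was the exception of complex I. Its brightest probe had levels of 5.33, 5.52 and 5.58 in Western diet E171 mice and 5.19, 5.34 and 5.39 in normal diet E171 mice, and 5.17, 5.48 and 5.63 in Western diet controls against 5.20, 5.33 and 5.45 in normal diet controls. All these groups overlapped. The difference was 0.18 in E171 mice (SE 0.060, adjusted p = 0.0116) and 0.12 in controls (SE 0.060, adjusted p = 0.098), which passed without Western diet control replicate 3 or 7 (adjusted p = 0.0239 and 0.0372). The further probe shown above gave 0.17 in E171 mice and 0.14 in controls, while a dimmer probe gave -0.12 in E171 mice and -0.39 in controls, so 1 of the 3 probes had the opposite sign.

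Complex II joins the respiratory chain to the citric acid cycle. Only Sdhd, 1 of its 2 membrane anchors, passed the test among its 4 subunits. Sdhd had levels of 5.77, 5.98 and 6.17 in Western diet E171 mice and 5.93, 6.26 and 6.41 in normal diet E171 mice, and of 5.72, 5.98 and 6.17 in Western diet controls and 6.04, 6.21 and 6.49 in normal diet controls. The groups overlapped. The difference was -0.27 in E171 mice (SE 0.074, adjusted p = 0.00307) and -0.25 in controls (SE 0.074, adjusted p = 0.00743), and 3 of the 7 scalings called it. Sdhb, the iron-sulfur subunit, had -0.075 in E171 mice (adjusted p = 0.372) and -0.17 in controls (adjusted p = 0.0502). The Sdhb difference in controls passed without any 1 of 8 mice (Western diet E171 replicates 1 and 3, Western diet control replicates 1, 5 and 6, normal diet E171 replicate 5 and normal diet control replicates 1 and 3), with adjusted p from 0.0149 to 0.0494. Sdhc, the other anchor, had -0.083 in E171 mice (adjusted p = 0.27) and -0.065 in controls (adjusted p = 0.408).

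Complex III passes electrons from ubiquinol to cytochrome c. 4 of its 8 subunits matched by name were lower in E171 mice (31.0% of all genes) and 4 in controls (28.8% of all genes). Cyc1, the gene of cytochrome c1, does not match the names and is not among the 8. Of the core proteins Uqcrc1 and Uqcrc2 and the Rieske iron-sulfur protein Uqcrfs1, 0 of 3 were lower in E171 mice and 1, Uqcrc1, in controls. Of the 5 small subunits, 4 were lower in E171 mice and 3 in controls.

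Uqcrh, the hinge protein that contacts cytochrome c1, had levels of 7.27, 7.44 and 7.52 in Western diet E171 mice and 7.69, 7.85 and 7.93 in normal diet E171 mice. In controls they were 7.27, 7.48 and 7.66 on the Western diet and 7.72, 7.73 and 7.91 on the normal diet. The diets did not overlap with either treatment. The difference was -0.40 in E171 mice (SE 0.052, adjusted p = 1.9e-07) and -0.32 in controls (SE 0.052, adjusted p = 1.08e-05). Over the 7 scalings it ran from -0.41 to -0.21 in E171 mice, called in all 7, and from -0.32 to -0.099 in controls, called in 4. Uqcrb, a small subunit near the ubiquinone sites, had -0.17 in E171 mice (adjusted p = 0.0433) and -0.29 in controls (adjusted p = 0.00162). Uqcr11, another small subunit, had -0.17 in E171 mice (adjusted p = 0.0305) and -0.20 in controls (adjusted p = 0.0148), and its sign turned with quantile normalization. The Uqcrb call in E171 mice was lost without any 1 of 8 mice (Western diet E171 replicates 2, 3 and 5 and normal diet E171 replicates 1, 2, 4, 6 and 8), with adjusted p from 0.0601 to 0.118. The Uqcr11 call there was lost without Western diet E171 replicate 2 or 3 or normal diet E171 replicate 1, with adjusted p from 0.0596 to 0.0757. With no filter on dim probes, neither passed in E171 mice (adjusted p = 0.076 for Uqcrb and 0.0557 for Uqcr11).

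Complex V makes ATP. Of its 15 subunits, 11 were lower in E171 mice (31.0% of all genes) and 10 in controls (28.8% of all genes). With either treatment 0 were higher, and the median difference was -0.19. The median over its subunits in a mouse ran from 6.89 to 7.20 in Western diet E171 mice and from 7.26 to 7.53 in normal diet E171 mice, and from 6.72 to 7.18 in Western diet controls and from 7.20 to 7.53 in normal diet controls, so the diets did not overlap with either treatment. In the F1 head, where ATP is formed, 3 of 5 subunits were lower in E171 mice and 2 in controls, with differences from -0.19 to 0.010 in E171 mice and from -0.19 to -0.10 in controls. In the peripheral stalk, which keeps the head from turning, 3 of 4 were lower in both. Atp5h, stalk subunit d, had -0.34 in E171 mice (SE 0.070, adjusted p = 0.000175) and -0.32 in controls (SE 0.070, adjusted p = 0.000418). Atp5o, the subunit that joins stalk and head, had -0.32 in E171 mice (SE 0.059, adjusted p = 4.01e-05) and -0.30 in controls (SE 0.059, adjusted p = 0.000151). Both were called in 6 scalings in E171 mice and in 3 in controls.

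The rotating ring of complex V is built of subunit c, for which 3 genes, Atp5g1, Atp5g2 and Atp5g3, encode the same mature protein behind different import sequences. Their diet differences were not tested against each other. Atp5g1 had levels of 6.65, 6.87 and 6.97 in Western diet E171 mice and 7.26, 7.39 and 7.53 in normal diet E171 mice, and 6.61, 6.89 and 7.11 in Western diet controls against 7.19, 7.33 and 7.53 in normal diet controls. With both treatments all 8 Western diet mice lay below all 8 normal diet mice.

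The Atp5g1 difference was -0.56 in E171 mice (a fold of 0.68, SE 0.065 on the log2 scale, adjusted p = 3.58e-08) and -0.47 in controls (a fold of 0.72, SE 0.065, adjusted p = 6.71e-07). Over the 7 scalings it ran from -0.56 to -0.35 in E171 mice and from -0.47 to -0.25 in controls, called in each. Within slides it ran from -0.62 to -0.50 in E171 mice and from -0.75 to -0.23 in controls. The probe printed above, dimmer than the brightest, gave -0.61 in E171 mice and -0.47 in controls, and the other Atp5g1 probe gave -0.23 in E171 mice and -0.24 in controls.

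Atp5g2 had levels of 6.77, 6.85 and 6.97 in Western diet E171 mice and 6.82, 7.09 and 7.20 in normal diet E171 mice, and 6.68, 6.87 and 6.93 in Western diet controls against 6.98, 7.07 and 7.19 in normal diet controls. The controls did not overlap and the E171 mice did. Its difference was -0.22 in E171 mice (adjusted p = 0.000817) and -0.24 in controls (adjusted p = 0.000433), called in 3 of the 7 scalings. Atp5g3 had -0.064 in E171 mice (adjusted p = 0.282) and -0.12 in controls (adjusted p = 0.0553), which passed without Western diet control replicate 1 or 5 or normal diet control replicate 1 (adjusted p from 0.0199 to 0.0344). Because a ratio of 2 genes within an array does not change when all genes of an array are multiplied by 1 factor, Atp5g1 was also set against Atp5g3 in each mouse. The log2 ratio of their signals, whose own value depends on the probes, ran from -1.18 to -0.92 in Western diet E171 mice and from -0.61 to -0.45 in normal diet E171 mice. It ran from -1.07 to -0.80 in Western diet controls and from -0.78 to -0.43 in normal diet controls. The diets did not overlap with either treatment in this ratio. The ratio of Atp5g1 to Atp5g2 ran from -0.21 to 0.20 in Western diet E171 mice and from 0.23 to 0.55 in normal diet E171 mice, without overlap. It ran from -0.11 to 0.21 in Western diet controls and from 0.062 to 0.36 in normal diet controls, with overlap. These ratios were formed after the values were seen and are given without a test. Atp5g2 and Atp5g3, like Atp5g1, were chosen for description after their values were seen.

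**Figure D5:**
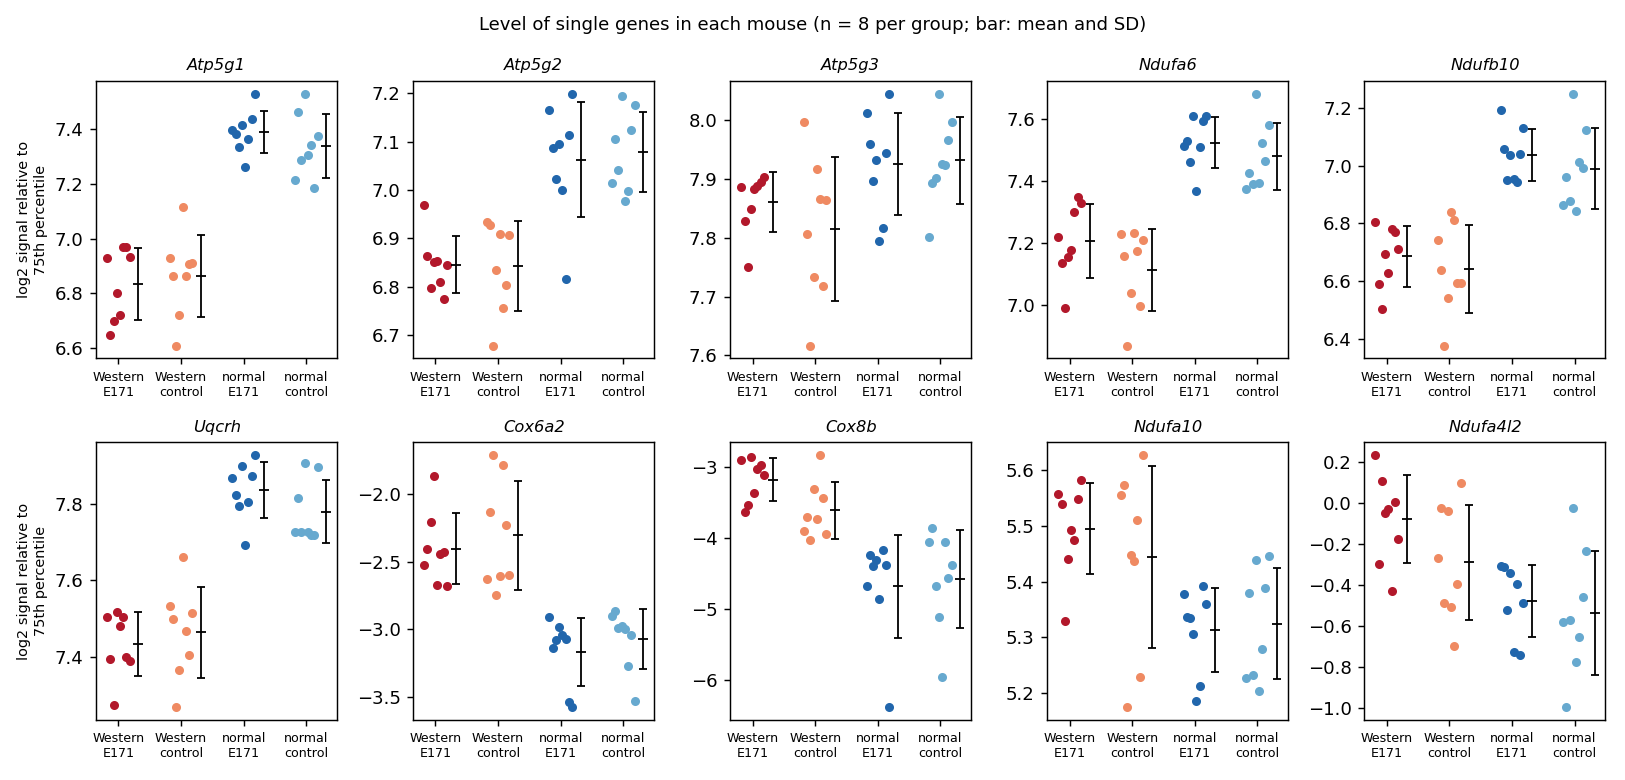
Level (vertical axis, log2 signal relative to the 75th percentile, a range of its own in each panel) of 10 genes in each mouse, by group (horizontal axis), with the mean and SD of 8 mice. For Atp5g1, Ndufa6, Ndufb10 and Uqcrh the Western diet mice lie below the normal diet mice of the same treatment, and for Cox6a2 above them; Atp5g3 and Ndufa10 overlap.

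Complex IV, which reduces oxygen, held both directions. Of its 16 tested subunits, 2 were lower and 2 higher in E171 mice (31.0% and 22.2% of all genes). In controls 4 were lower and 3 higher (28.8% and 18.5% of all genes). Of the 10 forms used by liver, 2 were lower in E171 mice and 4 in controls, with 0 higher, and medians of -0.12 in E171 mice and -0.13 in controls. Cox7a2, the liver form of subunit 7a, had levels of 6.79, 6.92 and 6.97 in Western diet E171 mice and 7.0, 7.10 and 7.24 in normal diet E171 mice, which did not overlap. In controls they were 6.77, 6.95 and 7.11 on the Western diet and 6.95, 7.10 and 7.26 on the normal diet, which did. The difference was -0.21 in E171 mice (SE 0.049, adjusted p = 0.000788) and -0.16 in controls (SE 0.049, adjusted p = 0.00909), and in controls its sign turned in 4 of the 7 scalings.

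The higher calls of complex IV were tissue-restricted forms with dim signals. Cox6a2, the heart and muscle form of subunit 6a, had processed signals with lowest, median and highest values of 37.6, 46.8 and 90.6 intensity units in Western diet E171 mice and 20.7, 30.9 and 32.9 in normal diet E171 mice. In controls they were 37.7, 59.0 and 102 units on the Western diet and 22, 29.8 and 41.8 units on the normal diet. On the log2 scale relative to the 75th percentile the diets did not overlap with either treatment. The difference was 0.76 in E171 mice (a fold of 1.70, SE 0.14, adjusted p = 5.27e-05) and 0.77 in controls (a fold of 1.70, SE 0.14, adjusted p = 6.34e-05). Over the scalings it ran from 0.26 to 0.88 in E171 mice and from 0.25 to 0.93 in controls, called in all 7, and was positive on all 4 slides in both.

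Cox8b, the heart, muscle and brown fat form of subunit 8, was well above background on 8 of 8 arrays in both Western diet groups and on 6 of 8 in both normal diet groups. Its signals were 25.4, 28.6 and 45.8 units in Western diet E171 mice and 2.95, 11.1 and 14.6 units in normal diet E171 mice, without overlap. They were 17.3, 22.6 and 39.7 units in Western diet controls and 3.45, 11.4 and 19.4 units in normal diet controls, with overlap. The difference was 1.51 in E171 mice (a fold of 2.84, SE 0.27, adjusted p = 2.88e-05) and 0.97 in controls (a fold of 1.96, SE 0.27, adjusted p = 0.00386). At such low signals the size depends on the background correction: over the scalings the difference ran from 0.21 to 1.62 in E171 mice, called in all 7, and from 0.050 to 1.13 in controls, called in 6. The interaction of diet and E171 was 0.53 (SE 0.38, adjusted p = 0.999).

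Markers of the tissues that use these forms were examined beside them. Of the 8 muscle markers, Ckm, Myh1 and Mb were not well above background on enough arrays to be tested, and of the other 5, 1 was higher and 2 lower in both comparisons. The summed level of those 5 ran from 0.41 to 0.51 times the 75th percentile in Western diet E171 mice, from 0.42 to 0.50 in Western diet controls, from 0.43 to 0.57 in normal diet E171 mice and from 0.43 to 0.57 in normal diet controls. Of the 4 brown fat markers, Ucp1 was not measured above background, Cidea was higher in both comparisons, Elovl3 lower in both and Ppargc1a lower in controls. The summed level of those 3 ran from 95.6 to 192 in Western diet E171 mice, from 19.1 to 147 in Western diet controls, from 41.6 to 94.2 in normal diet E171 mice and from 62.7 to 96.6 in normal diet controls. The part of these markers in the Cox6a2 and Cox8b results was not tested.

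Of the other tested restricted forms of complex IV, only Cox6b2 was called, and only in controls. Cox6b2, a testis form, had -0.030 in E171 mice (adjusted p = 0.701) and 0.18 in controls (adjusted p = 0.0184), and the difference between these was -0.21 (interaction, adjusted p = 0.919). Over the 7 scalings the Cox6b2 diet difference ran from 0.049 to 0.34 in controls, called higher in 6. In E171 mice it ran from -0.064 to 0.083, called in 0. Cox4i2, the lung form that responds to oxygen, had -0.16 in E171 mice (adjusted p = 0.0629) and -0.13 in controls (adjusted p = 0.151). The Cox4i2 difference in E171 mice passed without Western diet E171 replicate 1 or 7 or normal diet E171 replicate 2 (adjusted p from 0.0279 to 0.0489). Cox7a1, the heart and muscle form of subunit 7a, had -0.22 in E171 mice (adjusted p = 0.355) and -0.032 in controls (adjusted p = 0.909). Cox7b2, a testis form, had -0.37 in E171 mice (adjusted p = 0.126) and -0.30 in controls (adjusted p = 0.229).

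5 genes share the names but are no subunits. Ndufa4l2, a relative of Ndufa4 known as a target of hypoxia-inducible factor, had levels of -0.43, -0.035 and 0.24 in Western diet E171 mice and -0.74, -0.44 and -0.31 in normal diet E171 mice, which overlapped. The difference was 0.40 in E171 mice (SE 0.12, adjusted p = 0.00701), called in all 7 scalings, and 0.25 in controls (SE 0.12, adjusted p = 0.0956), which passed without Western diet control replicate 6 or normal diet control replicate 4 (adjusted p = 0.0385 and 0.0264). Atp5s, named coupling factor B, had 0.41 in E171 mice (adjusted p = 0.00238) and 0.19 in controls (adjusted p = 0.155). The remaining 3, Cox7a2l, Atp5sl and Atp5c1-ps, had negative differences in both comparisons, from -0.47 to -0.16. Of these, Atp5sl was called lower in all 7 scalings in E171 mice and in 6 in controls.

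E171 gave no call among the subunits. On the Western diet, 0 of 79 passed (0.381% of all genes did) and 1 had an unadjusted p under 0.05, against 11.9% of all genes. The mice of the E171 and control groups overlapped for every subunit on both diets, and 0.0423% of all genes were lower and 0.140% higher without overlap on the Western diet. On the normal diet, 0 passed (0% of all genes) and 0 had an unadjusted p under 0.05, against 4.05% of all genes. The interaction with diet gave 0 calls (0% of all genes) and 1 unadjusted p under 0.05, against 5.17%. The lowest adjusted p was 0.154 on the Western diet, 0.999 on the normal diet and 0.919 for the interaction. The median difference, E171 minus control, was 0.035 on the Western diet and -0.0051 on the normal diet. The differences ran from -0.20 (Cox6b2) to 0.44 (Cox8b) on the Western diet and from -0.098 to 0.17 on the normal diet.

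At the median SE of 0.061, the unadjusted 95% interval of a subunit's E171 difference extended 0.13 to either side of it. On the Western diet 59 of 79 differences were positive, but the median within slides ran from -0.047 to 0.11, and without Western diet control replicate 3 it was -0.0028. In the authors' deposited table Cox6b2 alone was called, with a value of -0.21 for E171 minus control on the Western diet (limma on those values, adjusted p = 0.0378).

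Other genes of the respiratory system were counted on the same scale for both diet comparisons, in which 31.0% of all genes were lower and 22.2% higher in E171 mice and 28.8% lower and 18.5% higher in controls. Of 11 mitochondrially encoded subunits, 2 were lower in E171 mice and 9 in controls, with medians of -0.13 in E171 mice and -0.25 in controls and 0 higher. The interaction of diet and E171 passed for 0 of these 11 genes. Of 50 assembly factors, which build the complexes, 19 were lower and 3 higher in E171 mice and 19 lower and 2 higher in controls. Of 78 mitochondrial ribosomal proteins, 39 were lower and 4 higher in E171 mice and 32 lower and 3 higher in controls. Of 86 cytosolic ribosomal proteins, 83 were lower in both, with medians of -0.37 in E171 mice and -0.34 in controls. A list of mobile electron carriers and other respiratory genes outside the name rule, Cyc1 included, had 16 tested. Of these, 2 were lower and 4 higher in E171 mice and 4 lower and 3 higher in controls. Their medians were -0.0041 in E171 mice and -0.0019 in controls. Of 31 outer membrane and import genes, 9 were lower and 2 higher in E171 mice and 12 lower and 0 higher in controls.

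Enzymes of and beside the citric acid cycle were also counted, in a list of 15 that includes Idh2 and the pyruvate carboxylase Pcx. Of these, 7 were higher and 1 lower in E171 mice (22.2% and 31.0% of all genes). In controls 5 were higher and 1 lower (18.5% and 28.8% of all genes). The lower one in both was Fh1, fumarase, with -0.28 in E171 mice and -0.32 in controls. Idh2, the NADP-linked isocitrate dehydrogenase of mitochondria, had the largest positive difference of the 15 in both, 0.79 in E171 mice and 0.92 in controls. Of 19 tested regulators of mitochondrial gene expression, 5 were lower and 3 higher in E171 mice and 9 lower and 1 higher in controls. Differences of the 19 ran from -0.71 to 2.54 in E171 mice and from -1.06 to 1.86 in controls. Only some of the regulators called are named next, and the one with the most negative difference is not among them. Pparg, a nuclear receptor of lipid storage, was higher by 2.54 in E171 mice and 1.86 in controls, while Polrmt and Twnk, the RNA polymerase and the helicase of mitochondrial DNA, were lower in both, with differences from -0.64 to -0.29. Ppargc1a, the coactivator PGC-1α, had -0.14 in E171 mice (adjusted p = 0.44) and -0.48 in controls (adjusted p = 0.012).

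Promoters were read for motifs known from nuclear respiratory genes, in windows of 250 bases before to 50 after each start in a RefSeq table of the GRCm38.p6 build, on both strands. Of 79 subunits, 66 matched a window by symbol. TGCGCA, the core of the NRF1 motif and its own reverse complement, was in 25.8% of them, against 8.79% of all 27025 genes. The ETS motif CCGGAAG, bound by GABP, was in 24.2%, against 9.93%. The YY1 motif AAGATGGCG was in 10.6%, against 1.64%, and the ERR motif TCAAGGTCA in 3.03%, against 0.466%. These shares describe the letters of the windows and were not tested.

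The stretches of 250 bases before the start are shown for 2 of the genes with no overlap between diets, Ndufa6 and Uqcrh, since each holds 1 such motif. The first is at chr15:82354292-82354541 and the second at chr4:116075071-116075320, both on the minus strand of GRCm38.p6. Capitals mark TGCGCA, which begins 80 bases before the start of Ndufa6, and CTTCCGG, the reverse complement of the ETS motif, which begins 10 bases before the start of Uqcrh.
Ndufa6: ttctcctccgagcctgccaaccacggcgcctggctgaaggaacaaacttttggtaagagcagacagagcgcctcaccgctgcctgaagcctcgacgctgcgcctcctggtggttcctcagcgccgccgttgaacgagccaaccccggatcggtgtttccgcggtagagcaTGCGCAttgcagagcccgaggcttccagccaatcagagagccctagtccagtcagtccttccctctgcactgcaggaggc
Uqcrh: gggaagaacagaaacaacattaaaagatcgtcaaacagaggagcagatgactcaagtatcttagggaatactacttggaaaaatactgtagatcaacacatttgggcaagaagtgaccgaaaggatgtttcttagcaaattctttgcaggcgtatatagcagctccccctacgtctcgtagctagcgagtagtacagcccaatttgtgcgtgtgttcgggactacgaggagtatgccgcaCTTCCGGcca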

How the data were processed

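Liver RNA of 32 mice was measured on Agilent one-colour (Cy3) arrays. The deposited scanner files hold intensity values of 62976 spots per array, background-corrected on a linear scale per the file headers and made with Agilent Feature Extraction 10.10.1.1 per the submitters' processing notes. Their flags, per the file headers, mark spots well above background. The deposited value table holds log2 values; limma is named in the submitters' processing notes, with other steps not given in the sources used here.

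Log2 processed signals were averaged over replicate spots without outlier spots, and each array's 75th percentile was subtracted. Probes well above background on at least 6 of 8 arrays of a group were kept (35777 of 56605). Names came from RefSeq by accession (32994 probes), symbol (10224) or synonym (520), or from the file (2574); 10293 had none. The brightest kept probe stood for each gene, and 31 of the 84 respiratory genes had several. In the diet comparison of controls, kept probes differed in sign for 4 of the 31 and spanned more than 0.2 for 10.

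The fit used limma 3.58.1 under R 4.3.3 on all arrays, 1 mean per group and no block, and the fit was tested on simulated data. Alternatives were other scalings, background corrections, filters and probe rules, blocks for slide and replicate number, and leaving out each array. Named in full are, in each complex, the 3 subunits of lowest diet p, those called against most of their complex or differing by 1 or more, and tissue-restricted forms. Members, lists and tests were chosen with earlier results of these data known. The number of arrays limits the precision.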

Additional observations from a re-analysis of the deposited data

Results flagged for a closer look

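In 3 of 100 sets of 8 mice examined, 1 value stood apart from the others by Dixon's ratio of gap to range at the 95% level; chance gives about 1 in 20. Atp5g2 in Western diet E171 mice had a ratio of 0.542, with replicate 1 highest at 6.97 and the next at 6.86. Cox8b in normal diet E171 mice had a ratio of 0.686, with replicate 8 lowest at -6.39 and the next at -4.87. Cox4i2 in normal diet E171 mice had a ratio of 0.793, with replicate 6 highest at -0.21 and the next at -0.61.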

How the results depend on the processing

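The diet counts changed with the scaling. Lower and higher subunits in E171 mice were 8 and 25 with quantile normalization, 9 and 23 with normexp and quantile, 7 and 20 in the deposited table and 2 lower with the spike-in scale (chosen after seeing the data), against 34 and 3. In controls they were 7 and 20, 7 and 20, 5 and 15, and 1 lower, and 26 and 1 with normexp at the 75th percentile, against 40 and 3. Subunit medians in that order became 0.063, 0.059, 0.054 and -0.014 in E171 mice, and 0.047, 0.049, 0.050 and 0.0079 in controls. With the spike-in scale the all-gene median was 0.011 in E171 mice and 0.058 in controls, and the E171 median on the Western diet -0.10. The deposited table called 1 subunit lower for E171 on the Western diet. The subunit median minus the all-gene median turned positive: 0.14 in E171 mice and 0.12 in controls with quantile normalization, 0.099 and 0.085 with normexp and quantile, 0.089 and 0.074 in the deposited table, 0.0033 and 0.0089 with normexp at the 75th percentile, and 0.014 in controls with no filter.

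Single genes reversed with quantile, normexp with quantile and the deposited table: Uqcr11 (0.018, 0.012 and 0.012 in E171 mice; 0.012, 0.023 and 0.026 in controls), Uqcrb in E171 mice (0.038, 0.049 and 0.040) and Cox7a2 in controls (0.073, 0.064 and 0.065, and 2.28e-05 with the spike-in scale). The cause was not tested.

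Leaving out each mouse in turn gave 22 to 36 lower subunits in E171 mice, the lowest without Western diet E171 replicate 3, and 30 to 52 in controls; 3 to 3 and 3 to 4 were higher. Medians ran from -0.14 to -0.10 in E171 mice and from -0.17 to -0.12 in controls. Probes taken 1 by 1 gave 53 lower and 5 higher of 125 in E171 mice and 62 and 3 in controls. With the replicate number as a block, 35 were lower in E171 mice and 45 in controls. Same-numbered mice were compared by their deviations from the group means over all tested genes. These deviations correlated over 0.1 in 5 of 8 pairs in E171 mice and 6 of 8 in controls. In each, 3 of 8 mice matched their own number best. These values do not decide whether the numbers mark pairs, and the main fit left them unpaired. With slide as a block 34 and 41 were lower. No E171 or interaction count other than the 1 above left 0.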
